A study of Mus musculus with 6 samples.

Results

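Ly6d, Ly6e, Lypd8 and Plaur belong to the Ly6/uPAR family, whose RNA was measured here in intestinal epithelial cells of mice. The family was chosen by a measured value: Ly6d RNA read near the bottom of the scale in the 3 control arrays and higher on the 3 arrays of mice with a deletion in the intestinal epithelium. Of 6 genes chosen (Ly6d, Ly6a, Ly6c1, Ly6e, Lypd8 and Plaur), 4 had a probe set that the array's annotation assigns to that gene alone, out of 18193 genes with such a probe set. These 4 genes had 5 probe sets, 2 of them for Ly6e. Ly6c1 shared its 1 annotated probe set with another gene and Ly6a was not assigned a probe set, so both were not analysed here.

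The 6 mice were of a mixed background of 129/SV and C57BL/6, and all carried a floxed gene labelled Pggt-Iβ, Pggt1b in the array's annotation, which encodes the beta chain of GGTase-I, an enzyme that joins geranylgeranyl lipids to proteins. The 3 deficient mice were positive for VillincreERT2, a tamoxifen-activated recombinase under the Villin promoter of gut epithelium, and the 3 control mice were negative for it. Both groups were injected with 1 mg of tamoxifen on each of 3 days, and their cells were taken on day 6, counted from the start of treatment. The recombinase was present in the deficient mice only, so an effect of the recombinase and one of the deletion cannot be told apart. The sources used here name neither sex and age nor the stretch of gut sampled, and they give no scan batch.

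Each mouse was measured on 1 array, and each probe set has 1 log2 expression value on it. They ran from 0.42 to 16.4, and the share of probe sets above 5 ran from 35.6% to 36.5% over the arrays. That level is used below as the limit under which a reading is treated as near the floor; it is not a measured background. Array-to-array correlations over the 8893 genes tested were 0.953 to 0.979 within the deficient group, 0.960 to 0.980 within the controls and 0.903 to 0.969 between groups. The Pggt1b probe set used read 9.75, 8.88 and 8.83 in deficient mice, against 9.30, 9.55 and 9.33 in control mice. The groups overlapped in all 4 Pggt1b probe sets, so the labels rest on the genotype alone. All 12 intestinal epithelial markers, Epcam and Vil1 among them, lay above 5, and all 15 endothelial markers lay at or below 5 on all 6 arrays.

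Ly6/uPAR proteins share a small fold of 3 loops held together by disulphide bonds. Most sit on the outer face of the plasma membrane through a glycosylphosphatidylinositol (GPI) lipid anchor, and a few are secreted. In the gut, members of the family act at the surface of epithelial cells or mark cells that are not epithelial. Plaur is the receptor of the protease urokinase, Lypd8 keeps flagellated bacteria away from the colonic surface in mice, and Ly6e is induced by interferon. Ly6d marks lymphoid progenitors that are committed to the B lineage in mice, and its human counterpart is a surface antigen of keratinocytes.

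Ly6d was the member that set the deficient mice apart. Its probe set read 7.77, 5.28 and 5.70 in deficient replicates 1, 2 and 3, against 2.86, 2.11 and 2.14 in control replicates 1, 2 and 3. All 3 deficient arrays lay above 5 and all 3 controls near the floor, and the lowest deficient reading was 2.42 above the highest control reading on the log2 scale. The group means were 6.25 ± 1.33 in deficient mice and 2.37 ± 0.42 in control mice (SD, n = 3 each). The difference of 3.88 on the log2 scale depends on how far below the level 5 the controls are taken to lie. Against that level, Ly6d was at least 2.38-fold higher in deficient mice. These are the values for which the gene was chosen, so they are a description and no test is given.

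The Ly6d readings spread more among the deficient mice than among the controls. Deficient replicate 1 stood 2.49 above deficient replicate 2 on the log2 scale, whereas the controls spanned 0.74. The controls lay near the floor, where readings are gathered together, so their small span does not show that these mice varied less. Without deficient replicate 1 the difference between groups was 3.12, and leaving out any other single array gave 3.75 to 4.36. Of the 10 genes called higher in deficient mice, 6 were highest in deficient replicate 1, as Ly6d was, and Ly6d was among the 3 that were lowest in deficient replicate 2.

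**Figure D1:**
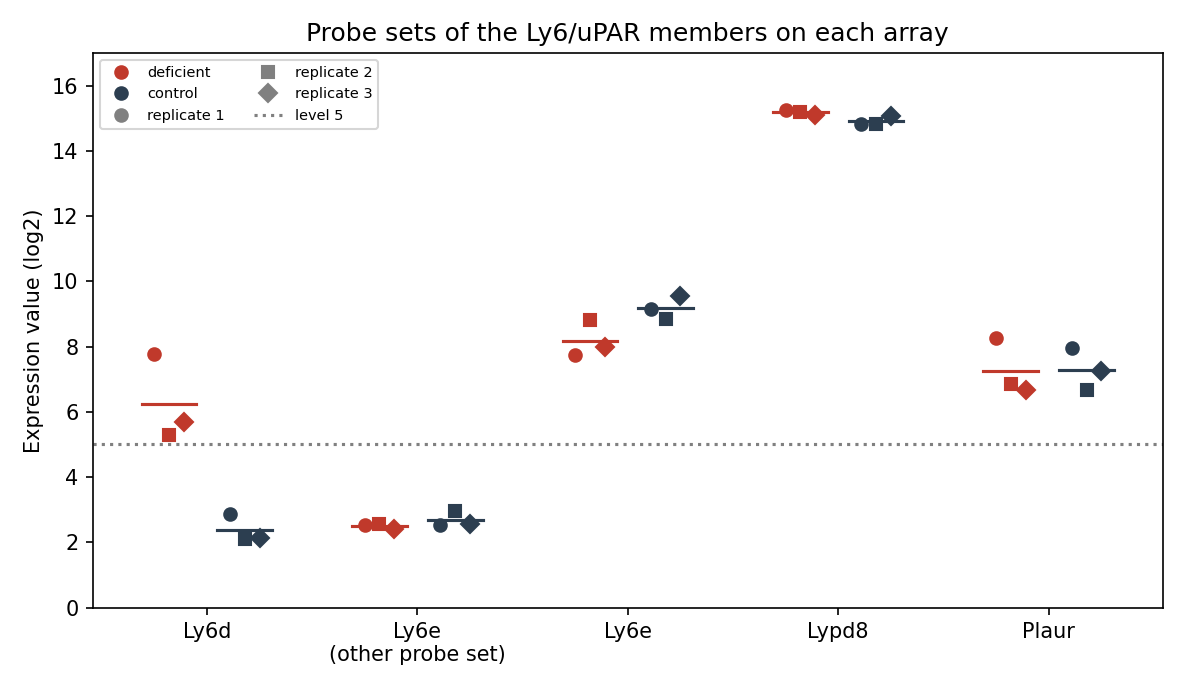
Expression values (log2, vertical axis) of the 5 probe sets of Ly6d, Ly6e, Lypd8 and Plaur on each array, with deficient arrays in red to the left of control arrays in dark blue. Marker shapes give the replicate, short lines the mean of 3 arrays and the dotted line the level 5. Ly6d alone has its deficient arrays above the dotted line, at 5.28 to 7.77, and its control arrays below it, at 2.11 to 2.86.

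A reading at or below 5 on all controls and above 5 on all deficient arrays was rare. Among the 8893 genes tested, 7 had this pattern and 102 had the opposite one. All 7 passed the filter, a reading above 5 on at least 3 arrays, through the deficient mice alone, so they had to differ and no test is given. The highest control reading was 2.82 for Anxa10, an annexin, and 2.86 for Ly6d. For the other 5 (Mpp3, Mid1, Ffar4, Inf2 and Gdpgp1; like Anxa10, named after their values were seen), the highest control reading lay between 4.66 and 4.86, just under the level. Their lowest deficient reading exceeded it by 0.17 to 0.75, against 6.09 for Anxa10 and 2.42 for Ly6d.

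The genes that lie beside Ly6d on chromosome 15 did not share its pattern. Of the 6 protein-coding genes on either side in RefSeq order (assembly GRCm38.p6), 9 were measured, and all 9 lay at or below 5 on all 6 arrays. Lynx1, which modulates nicotinic acetylcholine receptors and is the next gene on one side, read 4.04, 3.73 and 3.17 in deficient mice and 2.73, 3.18 and 3.21 in control mice. These groups overlapped, and no other neighbour came closer to the level 5. On the other side, the next gene, Ly6g6g, read 2.54 to 2.59 in deficient mice and 2.55 to 2.59 in control mice. The keratinocyte protein gene Slurp1, on the side of Lynx1, read 1.29 to 1.31 in deficient mice and 1.26 to 1.34 in control mice.

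**Figure D2:**
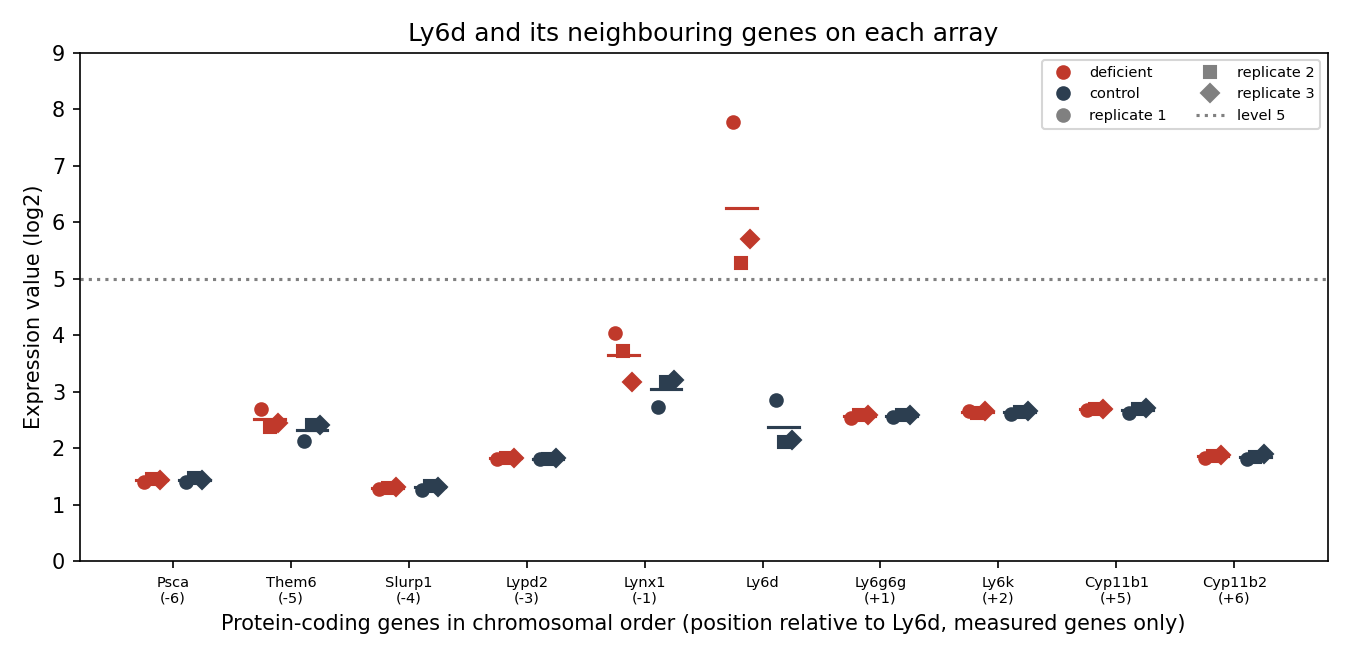
Expression values (log2, vertical axis) of Ly6d and the measured genes among its 6 neighbours on either side, in chromosomal order, with deficient arrays in red to the left of control arrays in dark blue, short lines for means and a dotted line at 5. The highest reading of any neighbour is 4.04, for Lynx1 in deficient replicate 1, and Ly6d is the one gene with readings above 5.

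Cell types in which Ly6d is known were looked at through their markers. For B cells, Cd79a, a subunit of the B cell receptor, read 1.94 to 1.99 in deficient mice and 1.95 to 1.98 in control mice. Of 13 B and plasma cell markers measured, 9 lay at or below 5 on all arrays, and of the 3 tested none was called (limma; 1 in each direction at an unadjusted p under 0.05). The values of those 2 were -1.62 for Jchain, the joining chain of IgA, and 1.31 for Blnk, a signalling adaptor (log2 difference, limma adjusted p = 0.192 and 0.197). The summed linear signal of this list ran from 5673 to 10542 in deficient mice and from 6625 to 7026 in control mice. Most of this sum on every array came from Sdc1, named after its values were seen, so the sum mainly follows that gene. Sdc1 read 12.9, 12.3 and 12.0 in deficient mice, against 12.4, 12.0 and 12.3 in control mice, and the groups overlapped.

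For stratified epithelium, 14 of 20 markers lay at or below 5 on all arrays. Krt14, the keratin of basal keratinocytes, read 2.10 to 2.18 in deficient mice and 2.15 to 2.19 in control mice. Of the 5 stratified markers tested, limma called 0, with 1, a lower one, at an unadjusted p under 0.05. The log2 difference was -0.88 for Sbsn and 0.44 for Sfn, an epithelial 14-3-3 protein (limma adjusted p = 0.235 and 0.316). Serpinb5, an epithelial serpin named after its values were seen, read 9.23, 7.21 and 6.57 in deficient mice, against 6.52, 6.01 and 6.29 in control mice (difference 1.39 ± 0.64, SE, limma adjusted p = 0.321). Its groups did not overlap. It was highest in deficient replicate 1, as Ly6d was, but with 3 deficient arrays nothing is read from this match. The summed linear signal of the stratified markers was 5973 to 6792 in deficient mice, against 6333 to 6771 in control mice. Most of this sum came from Perp, named after its values were seen, so it mainly follows that gene. Perp read 12.2 to 12.5 in deficient mice and 12.4 to 12.6 in control mice. The intestinal epithelial markers summed to between 192401 and 234562 in deficient mice, against 171685 to 188060 in control mice, with no overlap. Limma called 0 of the 12, and 2 were higher at an unadjusted p under 0.05, the keratins Krt18 at 0.95 and Krt19 at 0.69 (log2 difference, limma adjusted p = 0.229 and 0.283). These marker readings are a description, and whether other cells contribute to the Ly6d reading was not tested.

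Genes whose readings followed Ly6d most closely over the 6 arrays were B230308N11Rik (Pearson r = 0.997), Ippk (0.986), the aminopeptidase Npepps (0.985), the dynein light chain Dynll1 (0.984) and the SNARE protein Vti1b (0.983). The 6 arrays fall into 2 groups and share one normalization, so r records mainly the shift between groups and is given as a description. The sizes of change differed widely. Ippk, which makes inositol hexakisphosphate, and Dynll1 differed by 1.29 and 1.24 (log2), and B230308N11Rik, Npepps and Vti1b by 0.22, 0.19 and 0.26. None of the 5 was called by limma.

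Ly6e read lower in deficient mice. The probe set with the higher mean read 7.74, 8.83 and 8.0 in deficient replicates 1, 2 and 3, against 9.14, 8.85 and 9.54 in control replicates 1, 2 and 3. The groups did not overlap, but deficient replicate 2 lay only 0.03 below control replicate 2. The means were 8.19 ± 0.57 in deficient mice and 9.18 ± 0.34 in control mice (SD, n = 3 each), a difference of -0.99 ± 0.32 (SE of the fit). Without deficient replicate 2 the difference was -1.31, and without deficient replicate 1 it was -0.76. The other Ly6e probe set read 2.41 to 2.58 in deficient mice and 2.55 to 2.96 in control mice, near the floor on every array. The higher probe set carries the suffix of a design that can match more than 1 transcript, so related genes may contribute to its value.

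Markers of leukocytes also read lower in the deficient mice, and Ly6e was first described on thymocytes. In the list of T cells and intraepithelial lymphocytes, 11 of 13 tested genes fell and none rose (limma adjusted p under 0.05), where 1.98% of all genes tested were called lower. Of the 11, 3 had no deficient array above 5, so they passed the filter through the controls alone and had to differ. The summed linear signal of all 17 genes of the list on the array, called or not, was 1791 to 7031 in deficient mice and 25606 to 32922 in control mice. Leaving out deficient replicate 2 or any 1 control reduced the 11 calls to between 4 and 6. Il2rb, Coro1a, Ptprc (CD45) and Nkg7 had the smallest p, with log2 differences of -3.82, -2.82, -2.65 and -4.33. Il2rb was at or below 5 in all deficient mice, and against that level it was at least 5.01-fold lower. Nkg7 had 1 deficient array above 5, and with readings below 5 raised to 5 its difference was -3.64. In deficient replicates 1, 2 and 3 the sum was 1791, 3942 and 7031 for this list and 2015, 3679 and 2283 for the myeloid markers. Both sums were lowest in deficient replicate 1, as Ly6e was. The myeloid sum and Ly6e were highest in deficient replicate 2, and the T cell sum in deficient replicate 3. The largest part of the myeloid sum on every array came from Lyz2, named after its values were seen. Lyz2 was itself lowest in deficient replicate 1 and highest in deficient replicate 2, was not called, and its groups overlapped. The order of the myeloid sum thus does not describe that list as a whole, and nothing is read from its match with Ly6e. The stroma and muscle markers summed to between 1426 and 2104 in deficient mice, against 2156 to 4749 in control mice, with no overlap. Limma called 0 of 7 stromal genes tested, with 4 lower at an unadjusted p under 0.05. The 2 with the smallest p were Vim, the mesenchymal filament vimentin, at -1.07 and the collagen gene Col1a2 at -1.69 (log2 difference, limma adjusted p = 0.145 and 0.164). The part of leukocytes and stroma in the Ly6e reading was not tested. In these whole preparations, fewer cells of a type and less RNA per cell cannot be told apart.

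Interferon response genes did not move as a group beside Ly6e. Of 28 tested, limma called 0, and 1 had an unadjusted p under 0.05. By mean, 13 were higher and 15 lower in deficient mice, and the median log2 difference was -0.05, against -0.04 over all genes tested. The 2 with the smallest p were subunits of the immunoproteasome, Psmb9 at -0.89 ± 0.33 and Psmb8 at -1.06 ± 0.47 (log2 difference ± SE, limma adjusted p = 0.248 and 0.312). Both were lowest in deficient replicate 1, as Ly6e was.

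Lypd8 had the smallest spread within groups of the 4 members. It read 15.24, 15.20 and 15.11 in deficient mice, against 14.81, 14.83 and 15.06 in control mice. The groups did not overlap, by a margin of 0.05. The means were 15.18 ± 0.07 in deficient mice and 14.90 ± 0.14 in control mice (SD, n = 3 each), a difference of 0.28 ± 0.16 (SE of the fit) or 1.21-fold. The readings lay near the top of the scale, which ended at 16.4, where an array can understate a difference.

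Lypd8 is known from the colon, and the preparations held RNA typical of both parts of the gut. Car1, a carbonic anhydrase of colonocytes, read 13.7 to 14.5 in deficient mice and 13.8 to 14.6 in control mice. Lct, the lactase of the small intestine, read 12.7 to 14.1 in deficient mice and 14.4 to 14.7 in control mice. Car1 was named after its values were seen. Limma called 0 of 10 colonocyte genes and 0 of 14 small intestinal genes tested, with 1 in each list at an unadjusted p under 0.05. In the colonocyte list Slc37a2 and Sycn had the smallest p, at -2.39 and -0.84 (log2, limma adjusted p = 0.143 and 0.398), and in the other list Lct and the glucose transporter Slc5a1, at -0.94 and -0.76 (0.273 and 0.355). The summed linear signal of the colonocyte list was 27119 to 62148 in deficient mice and 31506 to 52062 in control mice.

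Plaur did not separate the groups. Its probe set read 8.27, 6.87 and 6.66 in deficient replicates 1, 2 and 3, against 7.95, 6.68 and 7.25 in control replicates 1, 2 and 3. The highest and the lowest reading of all 6 both came from deficient mice. The means were 7.27 ± 0.88 in deficient mice and 7.29 ± 0.64 in control mice (SD, n = 3 each), a difference of -0.03 ± 0.50 (SE of the fit). Leaving out 1 array gave differences from -0.53 to 0.30, so no direction can be given.

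The promoters of Lypd8 and Plaur are shown because both genes read above 5 on every array and they are the members with a matched sequence. RefSeq sequences matched these 2 of the 4 members, and Ly6d and Ly6e were not matched. The 150 bases before the first start listed for each gene are given 5′ to 3′, at chr11:58378882-58379031 for Lypd8 and chr7:24462333-24462482 for Plaur (GRCm38.p6, plus strand). Capitals mark matches, on either strand, to TATANAA (the TATA box), GGGCGG (the GC box) and TGANTCA (the AP-1 motif).
Lypd8: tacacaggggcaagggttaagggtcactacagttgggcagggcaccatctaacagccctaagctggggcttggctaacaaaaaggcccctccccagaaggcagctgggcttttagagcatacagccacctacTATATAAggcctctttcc
Plaur: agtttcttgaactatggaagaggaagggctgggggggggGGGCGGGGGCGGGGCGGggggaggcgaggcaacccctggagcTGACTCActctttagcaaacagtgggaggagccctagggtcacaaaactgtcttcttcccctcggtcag
The Lypd8 window held 1 TATANAA match and no match to the other motifs. The Plaur window held 3 GGGCGG matches, of which neighbours overlap or adjoin, and 1 TGANTCA match. Of 32851 promoter windows of the same length, 6.17% held TATANAA, 28.6% GGGCGG and 4.24% TGANTCA. A match is a run of letters and says nothing of whether a factor bound there.

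Of the 4 members, 1 was called over all genes tested (Ly6d, higher), where 2.09% of the 8893 genes were called and 0.112% were called higher. Ly6d passed the filter only through the deficient mice, as described above. It was not called when any 1 control was left out or when no filter was used. In 3 of the 4 members (Ly6d, Ly6e and Lypd8) the groups did not overlap, where the same held for 25.7% of all genes tested. Because this contrast chose the family, nothing is read from these counts.

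The other family genes listed for comparison mostly read near the floor in both groups. Of 29 listed Ly6/uPAR genes with a probe set of their own, 26 lay at or below 5 on all 6 arrays, among them Psca, Slurp1, Lypd3, Gpihbp1 and the sperm protein gene Tex101. In all 26 the groups overlapped, their highest reading was 4.18, and their differences ran from -0.27 to 0.61 on the log2 scale. Ly6m, Ly6g2 and Cd59a were the 3 that exceeded 5 on some array. Ly6g6g, described above as a neighbour of Ly6d, was not in the list and read near the floor as well.

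Ly6m read 10.9, 8.85 and 10.1 in deficient replicates 1, 2 and 3, against 9.35, 11.4 and 10.5 in control replicates 1, 2 and 3. The SD was 1.04 in deficient mice and 1.03 in control mice (n = 3 each). Its difference was -0.45 ± 0.66 (SE, limma adjusted p = 0.747), and with deficient replicate 2 left out it was 0.11, with control replicate 2 left out 0.05. Ly6g2 read 6.61, 7.33 and 7.81 in deficient mice, against 7.52, 7.50 and 7.89 in control mice, a difference of -0.38 ± 0.31 (SE, limma adjusted p = 0.550). Both pairs of groups overlapped. Cd59a, which blocks the terminal complement complex, read 3.82, 4.49 and 4.38 in deficient mice, against 4.53, 5.27 and 4.57 in control mice, and was too low to be tested. Limma called 0 of the 2 other family genes tested, with 0 at an unadjusted p under 0.05.

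**Figure D3:**
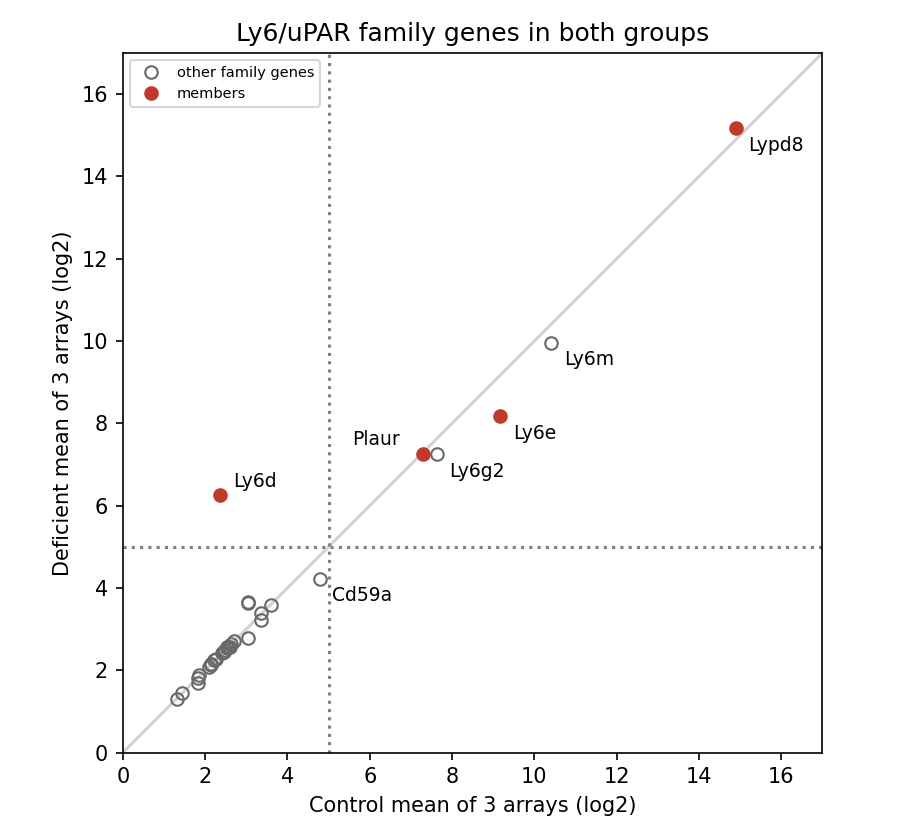
Mean of 3 deficient arrays (log2, vertical axis) against mean of 3 control arrays (log2, horizontal axis) for the 4 members, as filled red points, and 29 other listed Ly6/uPAR genes, as open grey points. The grey diagonal marks equal means and dotted lines the level 5. Ly6d, at 6.25 against 2.37, is the point farthest from the diagonal, and most grey points lie in the lower left corner, below both dotted lines.

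The anchor that holds these proteins on the membrane is built and trimmed by the products of a separate set of genes. Of 28 GPI synthesis and remodelling genes tested, 1 rose (Pgap1) and none fell, where 0.112% of all genes tested were called higher, and the median log2 difference was -0.12. Pgap1, which removes the inositol acyl chain of newly attached anchors, read 9.60, 10.2 and 8.84 in deficient mice, against 7.38, 7.15 and 7.03 in control mice. All deficient arrays lay above all controls, and the difference was 2.36 ± 0.34 (SE, limma adjusted p = 0.0176). It was not called when deficient replicate 1 or any 1 control was left out (limma adjusted p up to 0.0880), nor without a filter (0.118). By mean, 9 of the 28 genes were higher and 19 lower in deficient mice. Its highest array was deficient replicate 2, the one that was lowest for Ly6d.

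Among the partners of the urokinase receptor, few genes passed the test. Of 17 genes of plasminogen activation and uPAR binding tested, 1 fell (Mmp9) and none rose, where 1.98% of all genes tested were called lower, with 3 higher and 4 lower at an unadjusted p under 0.05. The median log2 difference was 0.11, and the summed linear signal was 45456 to 53264 in deficient mice, against 37507 to 42055 in control mice, with no overlap. Most of this sum came from S100a10 and Anxa2, both named after their values were seen. S100a10 read 14.4 to 14.5 in deficient mice and 14.3 to 14.5 in control mice. Anxa2 read 14.3, 14.2 and 13.7 in deficient mice, against 13.3, 13.2 and 13.4 in control mice (limma adjusted p = 0.156). The sum thus does not describe the list as a whole. Mmp9, a matrix protease also made by myeloid cells, read 3.87, 3.84 and 4.14 in deficient mice, against 5.34, 6.35 and 7.10 in control mice. It was at least 2.40-fold lower in deficient mice against the level 5 (fitted log2 difference -2.32 ± 0.42, limma adjusted p = 0.0436), and remained called when control replicate 1 was left out but not when any other single array was (limma adjusted p up to 0.194). It was also not called without a filter (limma adjusted p = 0.201), with a filter at 4 (0.0504), with trend and robust moderation (0.0501) or after quantile normalization (0.0572). Mmp9 had no deficient array above 5 and passed the filter through the controls alone, so it had to differ. The same held for Serpinb2, an inhibitor of urokinase, and Itgb2, the beta chain of leukocyte integrins, which read 3.14 to 3.45 and 3.32 to 4.26 in deficient mice, against 5.23 to 7.26 and 5.25 to 6.81 in control mice (limma adjusted p = 0.0503 and 0.0590). Plat, which encodes tissue plasminogen activator, read 8.59, 7.13 and 6.28 in deficient mice, against 6.40, 4.83 and 5.27 in control mice, and the groups overlapped (difference 1.83 ± 0.64, SE, limma adjusted p = 0.234). These 3 genes were named after their values were seen. Plau, the urokinase gene itself, read 2.69 to 2.73 in deficient mice and 2.66 to 2.77 in control mice, near the floor, and was named after its values were seen.

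Myeloid markers, the other usual source of Plaur and Mmp9, read lower in the deficient mice. Of 10 tested, 4 fell and none rose (limma adjusted p under 0.05), against the same 1.98% of all genes, and 2 fell without deficient replicate 2. The signalling adaptors Fcer1g and Tyrobp differed by -2.45 and -2.95, the macrophage marker Adgre1 by -1.96 and the integrin Itgax by -1.81 (log2). Itgax was at or below 5 in all deficient mice, so it passed the filter through the controls alone, and it was at least 2.15-fold lower against that level. The other tested genes were lower by mean but not called, and their groups overlapped (limma adjusted p = 0.432 to 0.765). They were Lyz2 at -0.41, Csf1r at -0.64, Cd14 at -0.31, Mpeg1 at -0.84, S100a8 at -1.55 and S100a9 at -1.68 (log2 difference), named after their values were seen. The summed linear signal of the 15 myeloid markers was 2015 to 3679 in deficient mice, against 3913 to 8356 in control mice, with no overlap. The largest part of this sum on every array came from Lyz2. For Plaur the groups overlapped. The part of myeloid cells in the Plaur and Mmp9 readings was not tested.

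Regenerating gut epithelium returns to a programme of fetal genes, and Ly6 surface proteins are among its known markers. Ly6a and Ly6c1 were not analysed here, and whether the Ly6d reading is part of this programme was not tested. Of 16 genes of this programme tested, limma called 0, with 6 higher and 2 lower at an unadjusted p under 0.05. By mean, 13 were higher and 3 lower in deficient mice, and the median log2 difference was 0.71, against -0.04 over all genes tested. Tnfrsf12a, the receptor of the cytokine TWEAK, read 9.33, 9.46 and 8.09 in deficient mice, against 7.36, 6.08 and 6.93 in control mice (difference 2.17 ± 0.46, SE, limma adjusted p = 0.0807). Krt7, a keratin of simple epithelia, read 12.8, 12.0 and 11.2 in deficient mice, against 10.7, 10.4 and 9.93 in control mice (difference 1.68 ± 0.40, SE, limma adjusted p = 0.122). In neither gene did the groups overlap. The 2 lower genes, named after their values were seen, were Ccn1, a matricellular protein gene, at -2.03 ± 0.56 and the growth factor gene Hbegf at -0.996 ± 0.303 (log2 difference ± SE, limma adjusted p = 0.162 and 0.190), and their groups did not overlap. The summed linear signal of the list was 30611 to 73047 in deficient mice, against 29330 to 38630 in control mice. Without deficient replicate 3 the list had 4 genes called higher, Tnfrsf12a and Krt7 among them. In that fit 36 genes were called higher over all genes tested, against 10 with all arrays.

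**Figure D4:**
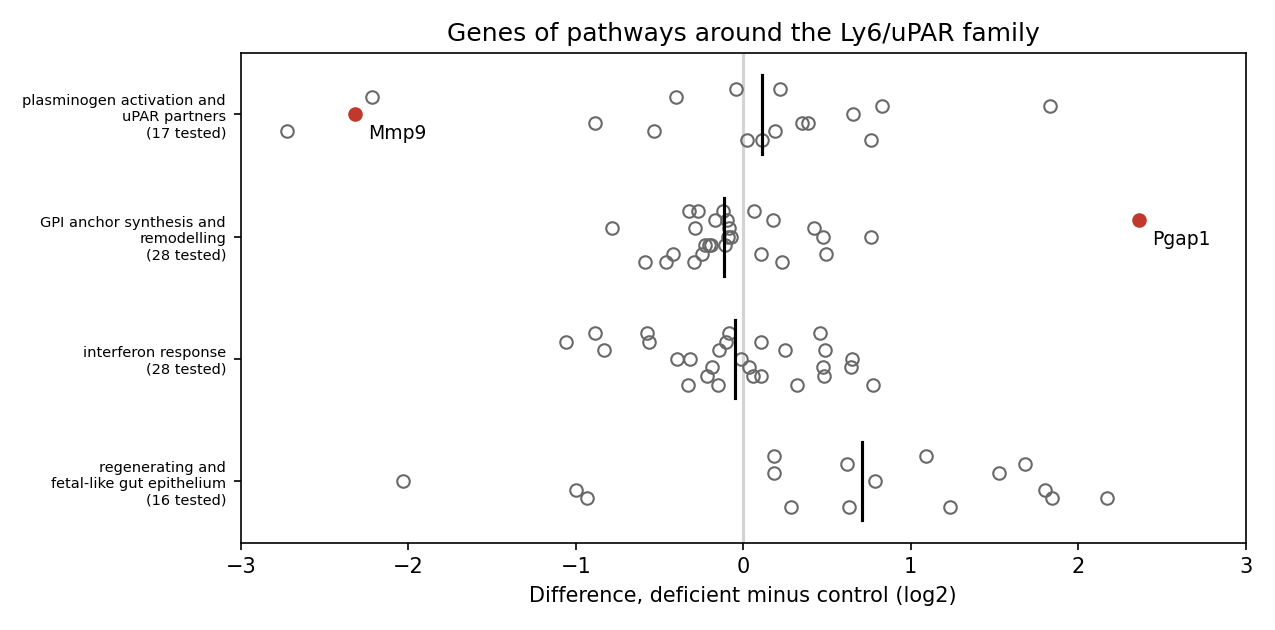
Differences between deficient and control means (log2, horizontal axis) of the tested genes in 4 lists, 1 point per gene, with a black line at each list's median. Filled red points are genes called by limma, which are Mmp9 at -2.32 and Pgap1 at 2.36. The list of regenerating epithelium has its median at 0.71 and no called gene.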

How the data were processed

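Total RNA of intestinal epithelial cells was measured on Affymetrix arrays, 3 deficient and 3 control mice. The authors deposited log2 values of expression for every probe set. Partek 6.5 and GCRMA are named in the submitters' processing notes, with no roles or order. The log2 scale was taken from their range. GCRMA gathers unexpressed probe sets near a floor. Precision is limited by there being 6 arrays.

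The table held 45101 probe sets, of which the platform annotation gave 1 symbol to 34945 and several to 932. Each gene was represented by its probe set with the highest mean. Genes above 5 on at least 3 arrays entered a fit in limma 3.58.1 (R 4.3.3; lmFit and eBayes without covariates), Benjamini-Hochberg adjusted over 8893 genes at 0.05. The fit was tested on simulated arrays. Differences are deficient minus control. P-values set the difference between groups against the spread of these arrays within groups, as moderated by eBayes. The summed linear signal of a list is the sum of 2 to the power of its values.

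Members and lists were chosen with earlier results of these data known. The genes named were Pggt1b, the members, family genes above 5 on any array, up to 4 called genes per list (or the 2 with the smallest p) and the 5 genes most like Ly6d. Other names are marked, or illustrate markers and genes near the floor. Teddm3, listed under an old name, was removed from the family list because it is no member. Alternatives changed the filter, moderation, weights, normalization, floor, probe set rule and replicate block. Each array was also left out once.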

Additional observations from a re-analysis of the deposited data

How the results depend on the processing

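The log2 difference of Ly6d, 3.88 as reported, was 1.25 with readings below 5 raised to 5 and 2.25 with those below 4 raised to 4, because the controls lie below both levels. It ran from 3.12 to 4.36 when 1 array was left out. In Ly6e, Lypd8 and Plaur no alternative moved the difference by more than the spread between mice, although the sign of Plaur changed, and the Ly6e difference was -0.59 with both probe sets averaged. Over all genes, 10 were called higher and 176 lower. Without a filter, which brings in genes at the floor, these became 0 and 85, and with the probe sets of a gene averaged 6 and 111. Array weights gave 33 higher, and leaving out 1 array gave 3 to 36 higher and 88 to 203 lower. No other Ly6/uPAR gene was called in any fit that tested one. Leaving out 1 array gave Ly6m differences from -0.97 to 0.11. With the replicate numbers as a replicate block, the differences of the members were unchanged, 9 genes were called higher and 132 lower, and 7 T cell genes fell. The numbers are not known to pair mice, since deviations of same-numbered arrays correlated at 0.05, -0.29 and 0.00. Ly6a and Ly6c1 had no probe set of their own, so their alternatives were not run. Readings near the floor limit what can be said of 26 family genes.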
